A study of Rattus norvegicus with 6 samples.

Results

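The genes described here supply, use and recycle glutathione in rat liver: cystine uptake and glutathione synthesis, recycling and breakdown, the soluble and membrane-bound glutathione transferases, the glutathione peroxidases, glutaredoxin and the glyoxalases. They were chosen by name from these pathways, with earlier results of these data known. The shares of genes called below therefore describe the list and do not test it. Their probes were found through the RefSeq accession that the array design gives each probe. Of 36 genes listed, 35 were on the array, with 59 probes among 61657, and all 59 passed the filter on dim probes; Gstt3 was not measured. The tested set held 11344 named genes and 38695 probes.

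The samples were livers of 6 male Sprague-Dawley (Crl:CD(SD)) rats bought at 5 weeks of age, each hybridised to its own 1-colour Agilent array. In the ADBAQ group, 3 rats had been given 1-amino-2,4-dibromoanthraquinone, an anthraquinone dye intermediate that causes liver tumours in rodents, at 1000 mg/kg/day. The 3 rats of the vehicle group received no ADBAQ, and the labels name their vehicle as purified water in one field and as corn oil in another. Exposure is given as 28 days in the series text and as 9 weeks in the treatment protocol. All 3 ADBAQ arrays lay on slide 2 and all 3 vehicle arrays on slide 1, and each slide was scanned in its own session, so group, slide and scan cannot be told apart anywhere below. Of the probes, 64.25 to 65.26% were well above background on ADBAQ arrays and 62.08 to 62.75% on vehicle arrays, and none was saturated.

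Glutathione is a tripeptide of glutamate, cysteine and glycine, and liver makes and exports more of it than most tissues. Its synthesis is limited by cysteine, taken up partly as cystine, and by glutamate-cysteine ligase. Transferases join it to electrophiles such as quinones and epoxides so that they can be exported, peroxidases spend it on reducing hydrogen peroxide and lipid peroxides, and glutathione reductase regenerates it with NADPH. Many of these genes carry an antioxidant response element, bound by the transcription factor NRF2 with a small Maf partner. Planar aromatic compounds can also act through the aryl hydrocarbon receptor, whose binding core differs from that element.

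Promoter windows are shown for the genes with the largest changes in either direction that hold the antioxidant response element core, TGACNNNGC, between 250 bases before and 50 after the annotated start. Capitals mark the core, sequences run 5′ to 3′ on the strand on which the core reads, and positions count from the annotated start, negative before it (RefSeq, GRCr8). Gstp1, Gpx2, Gclm and Gsta3 were higher in ADBAQ livers, and Gstm7 and Gstm5 were lower. The cores lie from -61 to -53 in Gstp1, from -13 to -5 in Gpx2, from -172 to -164 in Gclm, from -17 to -9 in Gsta3, from -14 to -6 in Gstm7, and from -113 to -105 and from -53 to -45 in Gstm5.
Gstp1, chr1:210769738-210769786, minus strand: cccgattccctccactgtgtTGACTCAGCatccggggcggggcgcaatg
Gpx2, chr6:101230018-101230066, plus strand: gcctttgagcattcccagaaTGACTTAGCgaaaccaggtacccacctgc
Gclm, chr2:213031943-213031991, minus strand: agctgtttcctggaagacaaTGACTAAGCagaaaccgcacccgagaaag
Gsta3, chr9:31154952-31155000, plus strand: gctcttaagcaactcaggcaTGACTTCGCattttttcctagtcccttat
Gstm7, chr2:198260305-198260353, minus strand: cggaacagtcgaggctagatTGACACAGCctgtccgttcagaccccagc
Gstm5 upstream core, chr2:198219636-198219684, plus strand: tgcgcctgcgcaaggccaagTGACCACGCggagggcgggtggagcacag
Gstm5 downstream core, chr2:198219696-198219744, plus strand: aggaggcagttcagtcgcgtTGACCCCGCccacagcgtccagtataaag

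Of the 36 genes, 31 had a promoter in the RefSeq table, which leaves out Gsr, Mgst2, Oplah, Gstt1 and Gstt2. The core, searched on both strands, was found in 4 of the 11 promoters of genes that rose, in 2 of 3 of genes that fell and in 2 of 16 of measured genes that did not pass the test, Gsta2 and Gstz1. Among the promoters of all 27457 genes of the same length, 13.1% held it. The core of the aryl hydrocarbon receptor site, GCGTG on either strand, was in 5 of the 11, 1 of the 3 and 8 of the 16 promoters, against 32.4% of all genes. In Gstm5 the match from -109 to -105 overlaps the antioxidant response element core from -113 to -105. A match of letters shows no bound site, and letters outside these windows were not searched.

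Glutathione genes were more often higher in ADBAQ livers than lower. At an adjusted p under 0.05, 13 of the 35 measured genes were higher (37.1%), where 9.05% of all tested genes were, and 4 were lower (11.4%), where 11.3% of all genes were. The genes that rose were Slc7a11, Gclc and Gclm of synthesis, Gsr of recycling, the transferases Gsta3, Gsta4, Gsta5, Gstm1, Gstm3, Gstm4, Gstp1 and Mgst2, and the peroxidase Gpx2. The genes that fell were Gstm5, Gstm7, Gpx1 and Oplah. In 9 of the 13 the rise was at least 2-fold, as was the fall in 1 of the 4. The median log2 fold change, ADBAQ minus vehicle, was 0.415 over the 35 genes and -0.04 over all genes tested.

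Counted without a test, the groups stayed apart in 23 of 35 genes (46.3% of all genes). The 3 ADBAQ rats all lay above the 3 vehicle rats in 16 of 35 genes (21.2% of all genes) and all below them in 7 (25.1% of all genes), and the groups overlapped in 12. In either direction 17 of 35 genes passed (20.3% of all genes), and 18 did not. All differences are changes relative to the other genes on the array. Scaling to the spiked-in E1A control probes instead moved the median of all genes to 0.72 and gave 11 of the 35 genes the opposite sign, all of them lower with the main scaling. Of the 14 genes lower with the main scaling, Gstm5, Gstm7 and Mgst3 kept their sign, and only Gstm7 passed there. In bulk liver, fewer cells of a type and less RNA per cell cannot be told apart.

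**Figure D1:**
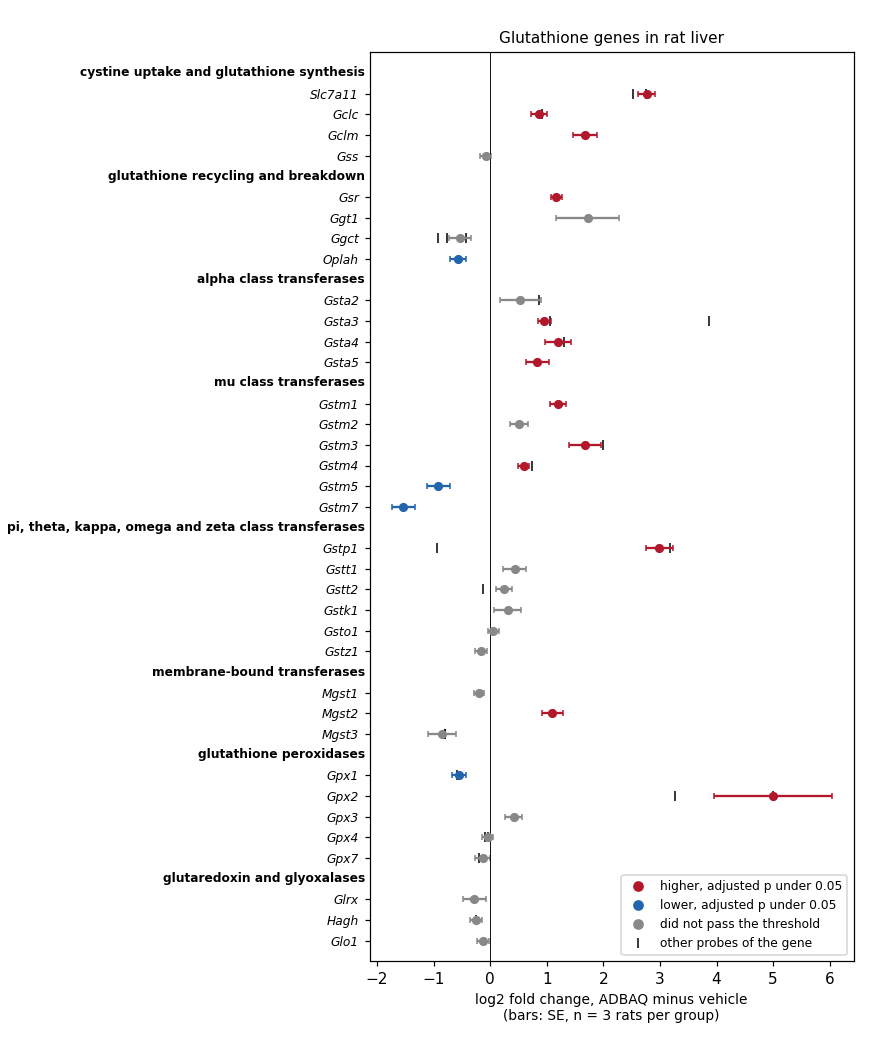
Log2 fold change, ADBAQ minus vehicle, of each measured glutathione gene by role, for its brightest probe (points, with SE bars, n = 3 rats per group) and its other probes (ticks). Among the points Gpx2 (4.99), Gstp1 (2.99) and Slc7a11 (2.76) lie farthest right and Gstm7 (-1.54) farthest left, and a Gsta3 tick stands at 3.87.

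Cystine uptake and the first enzyme of synthesis were higher in ADBAQ livers, while the second enzyme did not pass the test. Slc7a11 is the light chain of the cystine/glutamate exchanger, and its relative signal, the processed signal over the array's 75th percentile, was 0.491, 0.409 and 0.464 in ADBAQ rats, against 0.0552, 0.0716 and 0.0757 in vehicle rats. The groups did not overlap, and the lowest ADBAQ rat stood far above the highest vehicle rat. The difference was 6.78-fold, or 2.76 ± 0.15 on the log2 scale (SE, n = 3 rats per group; adjusted p = 0.000886 with limma). The other probes of Slc7a11 were well above background on no vehicle array, so they passed the filter on dim probes through the ADBAQ arrays alone. There the gene was at least 1.65-fold and at least 1.37-fold higher, and these bounds were not tested. The limma fit of these probes used the vehicle values near background (adjusted p = 0.000403 and 0.000665). With normexp background correction, which adds an offset of 50 to every spot, Slc7a11 rose by 1.44 on the brightest probe (adjusted p = 0.000157) and did not pass on either of the others (adjusted p = 0.0786 and 0.988).

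Gclm, the modifier subunit of glutamate-cysteine ligase, had relative signals of 0.168, 0.159 and 0.188 in ADBAQ rats and 0.0563, 0.0695 and 0.0398 in vehicle rats. It rose by 1.67 ± 0.21 on the log2 scale (adjusted p = 0.00755), or 3.18-fold, and by 0.53 with normexp (adjusted p = 0.00663). Gclc, the catalytic subunit, had relative signals of 60.2, 65.6 and 49.2 in ADBAQ rats and 34.1, 33.7 and 28.6 in vehicle rats. It rose by 0.85 ± 0.14 on the log2 scale (1.81-fold; adjusted p = 0.0138), and by 0.87 with normexp. Its second probe gave 0.92, and without ADBAQ rat 1 the adjusted p was 0.0515. The order of the rises of Gclm and Gclc turned between the processed signal and normexp, and their difference was not tested. For Gss, glutathione synthetase, the values were 5.62, 4.78 and 4.72 in ADBAQ rats and 5.40, 5.38 and 5.15 in vehicle rats, which overlapped, with a log2 fold change of -0.08 ± 0.10 (adjusted p = 0.610) that turned positive with spike-in scaling (0.68) and with normexp background correction (0.04).

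Of the enzymes that recycle or degrade glutathione, the reductase rose and 5-oxoprolinase fell. Gsr, glutathione reductase, had relative signals of 2.04, 2.43 and 2.23 in ADBAQ rats, against 1.05, 0.986 and 0.936 in vehicle rats. The groups were well separated, with little spread within either, at 1.17 ± 0.10 on the log2 scale (2.25-fold; adjusted p = 0.00317). Oplah, which opens the 5-oxoproline ring left by glutathione breakdown, had relative signals of 4.06, 4.63 and 5.29 in ADBAQ rats and 7.14, 7.66 and 5.91 in vehicle rats. Its log2 fold change was -0.57 ± 0.15 (adjusted p = 0.0444), but 0.19 with spike-in scaling. The call was kept with vehicle rat 3 left out and lost with any of the other 5 rats left out (adjusted p up to 0.122) and with median scaling (adjusted p = 0.0521).

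Ggt1, the surface enzyme that starts glutathione breakdown and a classic marker of altered foci in rat liver, had relative signals of 0.173, 0.461 and 0.113 in ADBAQ rats and 0.0422, 0.0620 and 0.0963 in vehicle rats. ADBAQ rat 2 stood highest, and ADBAQ rat 3 lay just above vehicle rat 3, so the groups did not overlap, but the difference of 1.72 ± 0.56 did not pass (adjusted p = 0.0783), and it was 0.56 with normexp. Ggct, gamma-glutamylcyclotransferase, had 4 probes with log2 fold changes between -0.92 and -0.42. The brightest gave -0.53 (adjusted p = 0.106, and 0.0491 with normexp), but was positive with spike-in scaling (0.23), and 1 of the others passed, at -0.76 ± 0.17 (adjusted p = 0.0283).

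**Figure D2:**
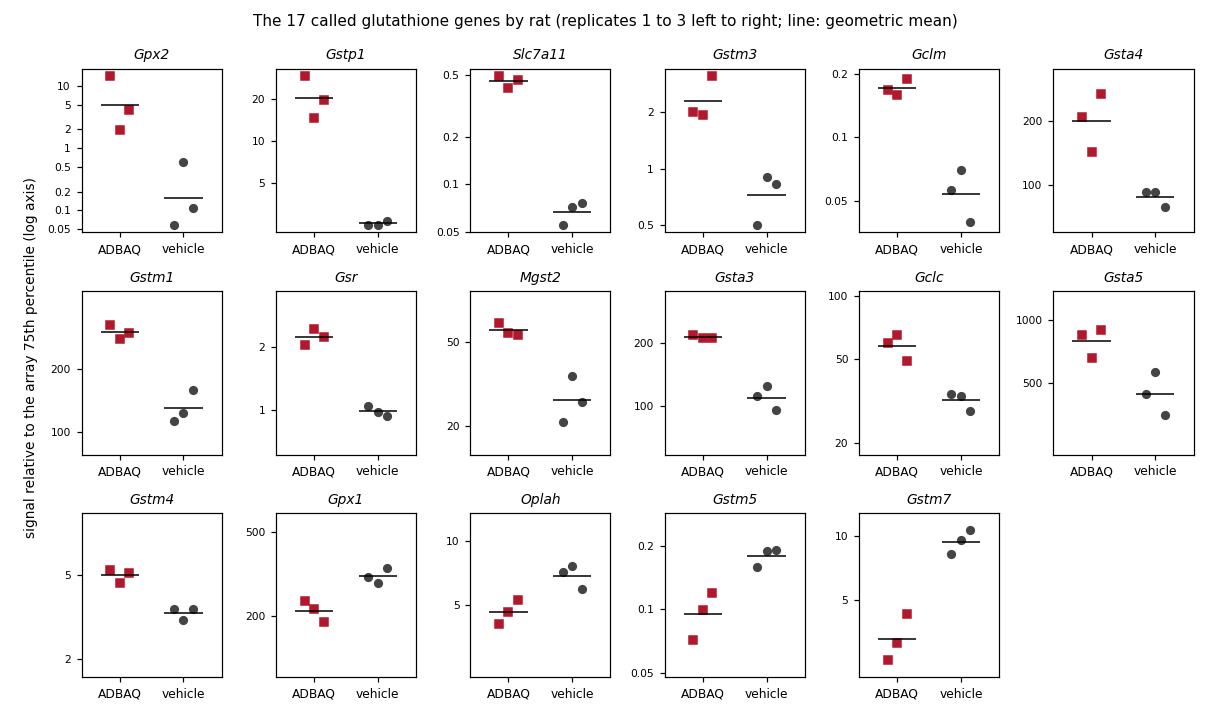
Relative signal (log axis, each panel with its own scale) of the 17 glutathione genes that passed the test, with ADBAQ rats as squares on the left and vehicle rats as circles on the right, and a line at each geometric mean. No panel has overlapping groups, and Gpx2 and Gstp1 show the widest spread among ADBAQ rats of the genes that rose at least 2-fold.

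The alpha class transferases, which conjugate electrophiles and reduce lipid peroxides in hepatocytes, were higher in 3 of the 4 listed genes (9.05% of all genes were). Gsta2 did not pass. Of this class, Gsta1 and Gsta6 were counted with the related genes below. Gsta1 rose, and Gsta6 overlapped between groups and did not pass (-0.04 ± 0.12; adjusted p = 0.833). Gsta3 had relative signals of 217.3, 211.7 and 210.0 in ADBAQ rats and 111.2, 124.2 and 95.8 in vehicle rats on its brightest probe. ADBAQ rats were nearly level, and the log2 fold change was 0.96 ± 0.12 (1.94-fold; adjusted p = 0.00686). A second probe, named for another RefSeq transcript of Gsta3 than its other probes, gave 1.06 ± 0.10. Another probe of Gsta3 gave 89.3, 83.4 and 82.0 in ADBAQ rats and 3.73, 11.2 and 4.67 in vehicle rats, a log2 fold change of 3.87 ± 0.39 (14.6-fold; adjusted p = 0.00437). All probes of Gsta3 passed in one direction, and they differed in the size of the change. Whether each reports only Gsta3 was not tested, since probe sequences were not analysed here. The same holds for the probes of the other transferases.

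Gsta4, known for conjugating the lipid peroxidation product 4-hydroxynonenal, had relative signals of 209.8, 143.5 and 268.0 in ADBAQ rats and 91.8, 92.6 and 78.6 in vehicle rats. It rose by 1.20 ± 0.23 (2.29-fold; adjusted p = 0.0202), and a second probe gave 1.31 ± 0.28. Gsta5, a rat transferase that conjugates aflatoxin epoxide, had 844.0, 658.5 and 892.5 in ADBAQ rats and 445.7, 563.2 and 351.0 in vehicle rats, a rise of 0.83 ± 0.20 (1.78-fold; adjusted p = 0.0394). ADBAQ rat 2 was the lowest of its group for both. The call of Gsta4 was lost without ADBAQ rat 1, vehicle rat 2 or vehicle rat 3 (adjusted p up to 0.0673), and that of Gsta5 with any rat but vehicle rat 2 left out (adjusted p up to 0.114). Gsta2 overlapped between groups on its brightest probe, with 636.8, 320.3 and 590.4 in ADBAQ rats and 391.6, 447.8 and 226.2 in vehicle rats (0.53 ± 0.35; adjusted p = 0.322).

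The mu class, cytosolic transferases active on epoxides and quinones, moved in both directions. Of its 6 genes among the 35 described here, 3 were higher (9.05% of all genes were) and 2 lower (11.3% of all genes were). The groups did not overlap in any of the 6, as in 46.3% of all genes. They did overlap in Gstm6, counted with the related genes below, which did not pass (-0.14 ± 0.25; adjusted p = 0.718). Gstm1 had relative signals of 323.9, 277.2 and 295.3 in ADBAQ rats and 113.4, 122.8 and 158.2 in vehicle rats. All 3 ADBAQ rats stood well above the highest vehicle rat, at 1.20 ± 0.15 (2.29-fold; adjusted p = 0.00721). Gstm3 had 2.01, 1.93 and 3.13 in ADBAQ rats and 0.501, 0.901 and 0.826 in vehicle rats, a rise of 1.67 ± 0.29 (3.19-fold; adjusted p = 0.0150). Its second probe gave 1.99 ± 0.35, and ADBAQ rat 3 was highest on both. Gstm4 had 5.26, 4.59 and 5.10 in ADBAQ rats and 3.43, 3.06 and 3.44 in vehicle rats, a smaller rise of 0.59 ± 0.10 (1.51-fold; adjusted p = 0.0150). Gstm2 did not pass at 0.51 ± 0.15 (adjusted p = 0.0674), but did with quantile normalization (adjusted p = 0.0476) and with trend and robust (adjusted p = 0.0391), and ADBAQ rats, at 51.8 to 63.6, all lay above vehicle rats, at 36.2 to 50.01.

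In the same class Gstm7 had relative signals of 2.59, 3.10 and 4.28 in ADBAQ rats, against 8.19, 9.61 and 10.69 in vehicle rats. It fell by 1.54 ± 0.20 on the log2 scale (adjusted p = 0.00857), and vehicle rats were 2.90-fold higher. Gstm5 had 0.0714, 0.0991 and 0.120 in ADBAQ rats and 0.159, 0.189 and 0.191 in vehicle rats, a log2 fold change of -0.92 ± 0.20 (adjusted p = 0.0291). ADBAQ rat 1 was the lowest for both. With spike-in scaling Gstm7 stayed lower (-0.78; adjusted p = 0.00894), and Gstm5 stayed on the same side without passing (-0.17; adjusted p = 0.443). Gstm5 lost its call without ADBAQ rat 1 or 2 or vehicle rat 2 or 3 (adjusted p up to 0.0809), and Gstm4 without ADBAQ rat 1 or 3 (adjusted p up to 0.0553).

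Gstp1, the pi class transferase and the standard marker of preneoplastic foci in rat liver, had the second largest rise of the 35 genes. The probe with the highest mean log2 signal had relative signals of 29.0, 14.6 and 19.6 in ADBAQ rats and 2.49, 2.502 and 2.66 in vehicle rats. Vehicle rats were almost level, while ADBAQ rats spread about their mean and stood far above. The log2 fold change was 2.99 ± 0.24 (7.94-fold; adjusted p = 0.00268), and a second probe gave 3.17 ± 0.23 (9.003-fold).

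Another probe of Gstp1 gave 88.2 and 46.9 in ADBAQ rats 1 and 2, against 9.60, 8.78 and 9.57 in vehicle rats. On the array of ADBAQ rat 3 its spot had a processed signal of 16.73 and was not well above background, where the other ADBAQ arrays read 56730 and 26720. The spot carried no outlier flag, so it stayed in the fit, which gave -0.93 ± 2.97 (adjusted p = 0.848) for that probe. Without that spot the mean of ADBAQ rats 1 and 2 was 6.91-fold above vehicle. Only 3 of 61657 probes had a lowest array more than 6 log2 units under the next lowest, and none had a highest array that far above the next highest. This probe was brighter than the one used for Gstp1 on 5 of 6 arrays, and the spot lowered its mean log2 signal below that of the other. Had it stood for Gstp1, the gene would not have been called. Averaging the probes of Gstp1 with this spot included also ended the call (adjusted p = 0.269).

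None of the listed theta, kappa, omega and zeta transferases passed in limma (0 of 5 also at an unadjusted p under 0.05), and their groups overlapped in all 5 measured genes of the list. Log2 fold changes were 0.44 ± 0.20 for Gstt1, 0.24 ± 0.14 for Gstt2, 0.31 ± 0.25 for Gstk1, found in mitochondria and peroxisomes, 0.05 ± 0.10 for Gsto1, which also reduces dehydroascorbate, and -0.16 ± 0.10 for Gstz1, the maleylacetoacetate isomerase of tyrosine breakdown, which was 0.59 with spike-in scaling and -0.24 with normexp (adjusted p = 0.0470). Gstt1 had 8.63, 10.2 and 14.3 in ADBAQ rats and 7.01 to 8.85 in vehicle rats, so ADBAQ rats 2 and 3 lay above the vehicle range and ADBAQ rat 1 within it. The probes of Gstt2 disagreed in sign (0.24 and -0.13).

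**Figure D3:**
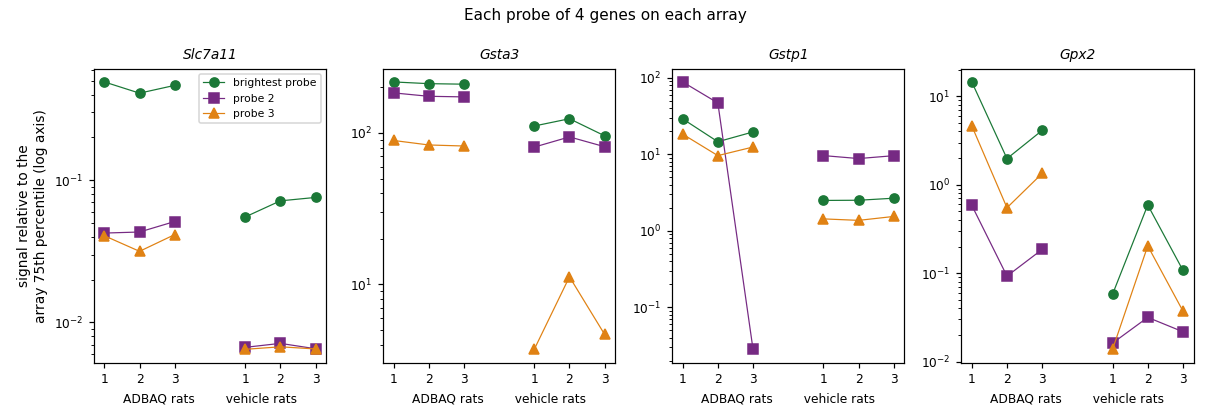
Relative signal (log axis) of every probe of Slc7a11, Gsta3, Gstp1 and Gpx2 in ADBAQ rats 1 to 3 (left of each panel) and vehicle rats 1 to 3 (right). The dimmest Gsta3 probe shows a wider gap between groups than the other Gsta3 probes (14.6-fold), and 1 Gstp1 probe drops to 0.0281 in ADBAQ rat 3.

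Of the 3 listed membrane-bound transferases Mgst2 rose, and Mgst1 and Mgst3 did not pass. The groups did not overlap in any of the 3, as in 46.3% of all genes. Mgst2, which also makes leukotriene C4, had relative signals of 61.4, 54.9 and 54.0 in ADBAQ rats and 20.8, 34.5 and 25.8 in vehicle rats. It rose by 1.098 ± 0.19 (2.14-fold; adjusted p = 0.0157), with an adjusted p of 0.0566 without ADBAQ rat 1. Mgst1, an abundant protein of the hepatocyte endoplasmic reticulum, lay at 164.7 to 179.8 in ADBAQ rats and at 195.8 to 204.4 in vehicle rats, a log2 fold change of -0.20 ± 0.08 (adjusted p = 0.142) that was 0.55 with spike-in scaling. Mgst3 had 34.1, 60.0 and 63.0 in ADBAQ rats and 82.6, 101.1 and 90.3 in vehicle rats. Its 3 probes gave -0.85, -0.80 and -0.80, and none passed (adjusted p = 0.0606 for the brightest). All 3 passed with normexp (adjusted p = 0.0225, 0.0478 and 0.0450), and the brightest also with trend and robust (adjusted p = 0.0482). With spike-in scaling the log2 fold changes of Mgst3 were -0.09, -0.05 and -0.05.

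Among the peroxidases the largest rise of all 35 genes, that of Gpx2, stood beside a fall of Gpx1. Gpx2, the peroxidase typical of the gut epithelium, had relative signals of 14.5, 1.98 and 4.12 in ADBAQ rats and 0.0579, 0.591 and 0.108 in vehicle rats. The groups did not overlap, but both spread widely, with ADBAQ rat 1 highest and vehicle rat 2 the highest of its group. The log2 fold change was 4.99 ± 1.04 (31.8-fold; adjusted p = 0.0252), on a probe well above background on all 6 arrays. The other probes were well above background on only 1 and 2 of the 3 vehicle arrays, so their values of 3.27 and 5.00 rest on dim signals. With normexp the 3 probes gave 3.98, 1.15 and 2.97, and the second of these did not pass (adjusted p = 0.0523). The call was lost without ADBAQ rat 1 or 3 or vehicle rat 1 or 3 (adjusted p up to 0.0756), while the log2 fold change stayed between 4.21 and 5.96 with each rat left out.

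Gpx1, the main cytosolic peroxidase of liver, had relative signals of 234.1, 215.3 and 186.3 in ADBAQ rats and 304.1, 284.9 and 339.0 in vehicle rats. Its log2 fold change was -0.55 ± 0.12 (adjusted p = 0.0308), and a second probe gave -0.58, but spike-in scaling turned it to 0.21. The call was lost with any 1 rat left out, at adjusted p between 0.0536 and 0.0805, and with quantile normalization (adjusted p = 0.0586). Gpx3, the secreted plasma form, had a log2 fold change of 0.41 ± 0.15 with separate groups (0.140 to 0.181 in ADBAQ rats and 0.0990 to 0.129 in vehicle rats; adjusted p = 0.107). Gpx4, which reduces phospholipid hydroperoxides, and Gpx7, of the endoplasmic reticulum, overlapped between groups at -0.04 ± 0.09 and -0.13 ± 0.14, and both were positive with spike-in scaling, as was Gpx4 with quantile normalization (0.074).

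Neither Glrx, a glutaredoxin, nor the glyoxalases, which detoxify methylglyoxal with glutathione, passed the test in limma (0 of 3 also at an unadjusted p under 0.05). Log2 fold changes were -0.28 ± 0.20 for Glrx, -0.13 ± 0.10 for Glo1 and -0.25 ± 0.11 for Hagh, all of them positive with spike-in scaling. Hagh alone had separate groups, with 47.3 to 58.1 in ADBAQ rats and 61.2 to 66.8 in vehicle rats.

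The individual rats held different places within their group. Among the 13 genes that rose, ADBAQ rat 2 was the lowest of its group in 9 and ADBAQ rat 1 the highest in 7, and vehicle rat 2 was the highest of its group in 7. Over the 35 genes, the median ratio of the highest to the lowest rat was 1.29 in the ADBAQ group and 1.27 in the vehicle group. With each of the 6 rats left out in turn, 8 of the 17 calls were always kept: Slc7a11, Gclm, Gsr, Gsta3, Gstm1, Gstm3, Gstp1 and Gstm7. Of the 16 genes with several probes, 14 had all probes on the same side, and Gstp1 and Gstt2 did not.

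**Figure D4:**
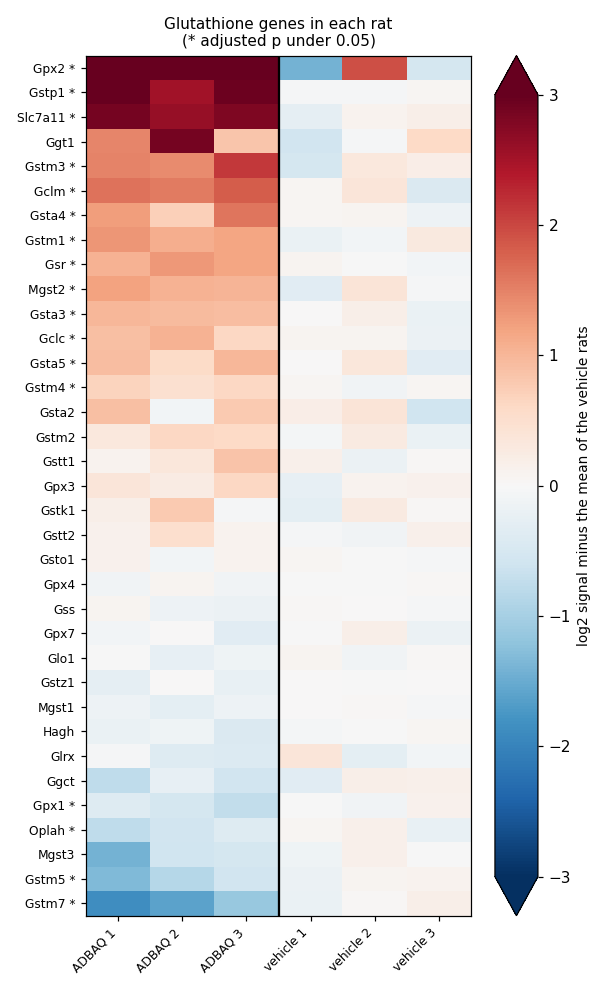
Log2 relative signal of each of the 35 glutathione genes in each rat minus the mean of the vehicle rats, ADBAQ rats on the left and vehicle rats on the right, with genes ordered by log2 fold change and an asterisk where the test was passed. ADBAQ rat 1 stands highest for Gpx2 and Gstp1, ADBAQ rat 2 for Ggt1, and vehicle rat 2 above the other vehicle rats for Gpx2.

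Related genes outside the 35 were counted from 3 lists, also chosen with earlier results of these data known. Of these, 60 genes were tested, 23 higher (9.05% of all genes were) and 11 lower (11.3% of all genes were). Of 26 further glutathione genes, 7 rose (9.05% of all genes did) and 4 fell (11.3% of all genes did), with a median log2 fold change of 0.04. Those that rose were Abcc2 (1.08 ± 0.16), the canalicular exporter of glutathione conjugates, Slc3a2 (0.97 ± 0.19), the heavy chain that pairs with Slc7a11, Abcc1 (0.68 ± 0.14), Prdx6 (0.58 ± 0.09), a peroxiredoxin that uses glutathione, Slc25a39 (0.42 ± 0.08), a mitochondrial glutathione importer, Gsta1 (0.41 ± 0.09) and Glrx3 (0.40 ± 0.09). Slc3a2 had relative signals of 20.2, 20.9 and 19.3 in ADBAQ rats and 8.48, 13.7 and 9.39 in vehicle rats, with no overlap, as for Slc7a11. Those that fell were Anpep (-0.87 ± 0.13), a peptidase, Gpx8 (-0.69 ± 0.14), Ggt7 (-0.58 ± 0.13) and Cndp2 (-0.52 ± 0.12), a dipeptidase that splits cysteinylglycine. With spike-in scaling all of these but Anpep changed sign, and Anpep did not pass (-0.11, adjusted p = 0.477). With each rat left out in turn, Abcc2, Prdx6 and Anpep always kept their call. Gsta1 lost it without any 1 rat (adjusted p up to 0.0841), and the others without 4 or 5 of the 6 (adjusted p up to 0.106 for Cndp2).

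Genes that make or spend cysteine inside the cell were mostly lower, whereas Slc7a11 was higher. Of 11, 7 fell (11.3% of all genes did) and 1 rose (9.05% of all genes did), the neutral amino acid transporter Slc1a5 (0.89 ± 0.21), whose second probe did not pass (0.20; adjusted p = 0.464). The falls were Ethe1 (-1.23 ± 0.15) and Mpst (-0.36 ± 0.09) of sulfide metabolism, Cdo1 (-0.98 ± 0.13), which oxidises cysteine, Cth (-0.79 ± 0.13) and Cbs (-0.65 ± 0.11) of transsulfuration, and Ahcy (-0.67 ± 0.09) and Mat1a (-0.58 ± 0.10) of the methionine cycle. With spike-in scaling Mpst, Cbs, Ahcy and Mat1a changed sign, and Ethe1 was still called lower (-0.47, adjusted p = 0.0403). Cdo1 (-0.22, adjusted p = 0.152) and Cth (-0.03, adjusted p = 0.808) kept their sign without passing. Mpst lost its call without any 1 rat (adjusted p up to 0.127), Slc1a5 without any but ADBAQ rat 2 (adjusted p up to 0.101), and Cbs and Mat1a without ADBAQ rat 1 (adjusted p = 0.0546 and 0.0513).

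Of 23 regulators and other targets of NRF2, 15 rose (9.05% of all genes did) and none fell in limma. The median log2 fold change was 1.15, and 8 did not pass. At an unadjusted p under 0.05, 1 was lower, Ftl1 on its brightest probe (-0.21 ± 0.08, adjusted p = 0.138). Its other probes gave 0.62, 0.56, 0.49 and 0.22 (adjusted p = 0.0355, 0.0468, 0.0386 and 0.166). Nfe2l2, which encodes NRF2, had relative signals of 33.6, 27.1 and 30.5 in ADBAQ rats and 14.7, 17.2 and 17.0 in vehicle rats (0.90 ± 0.12; adjusted p = 0.00866). The largest rises were those of Akr1b8 (4.68 ± 0.56) and Akr7a3 (3.30 ± 0.28), aldo-keto reductases, Abcc3 (3.95 ± 0.34) and Abcc4 (1.90 ± 0.18), exporters, the small Maf protein gene Maff (2.61 ± 0.27, and 0.94 with normexp), Srxn1 (2.28 ± 0.21), sulfiredoxin, Hmox1 (1.68 ± 0.25), heme oxygenase, and Ephx1 (1.61 ± 0.17), microsomal epoxide hydrolase. Keap1 and Bach1, repressors in this pathway, did not pass at 0.25 ± 0.13 (adjusted p = 0.209) and 0.35 ± 0.10 (adjusted p = 0.0547). Bach1 passed on its dimmest probe (0.64; adjusted p = 0.0215), and on the brightest with quantile normalization (adjusted p = 0.0486) and with median scaling (adjusted p = 0.0432). With normexp neither of these probes passed, at 0.02 for the dimmest (adjusted p = 0.835) and 0.20 for the brightest (adjusted p = 0.107). Nqo1, the quinone reductase, had 16.8, 3.97 and 21.2 in ADBAQ rats and 3.19, 2.81 and 3.38 in vehicle rats, with ADBAQ rat 2 close to vehicle. Its difference of 1.85 ± 0.61 did not pass (adjusted p = 0.0824), nor did it with any rat but ADBAQ rat 2 left out (adjusted p = 0.152 to 0.206). Without ADBAQ rat 2 it passed (adjusted p = 0.00511), as did its other probe over all rats (1.99; adjusted p = 0.0491).

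**Figure D5:**
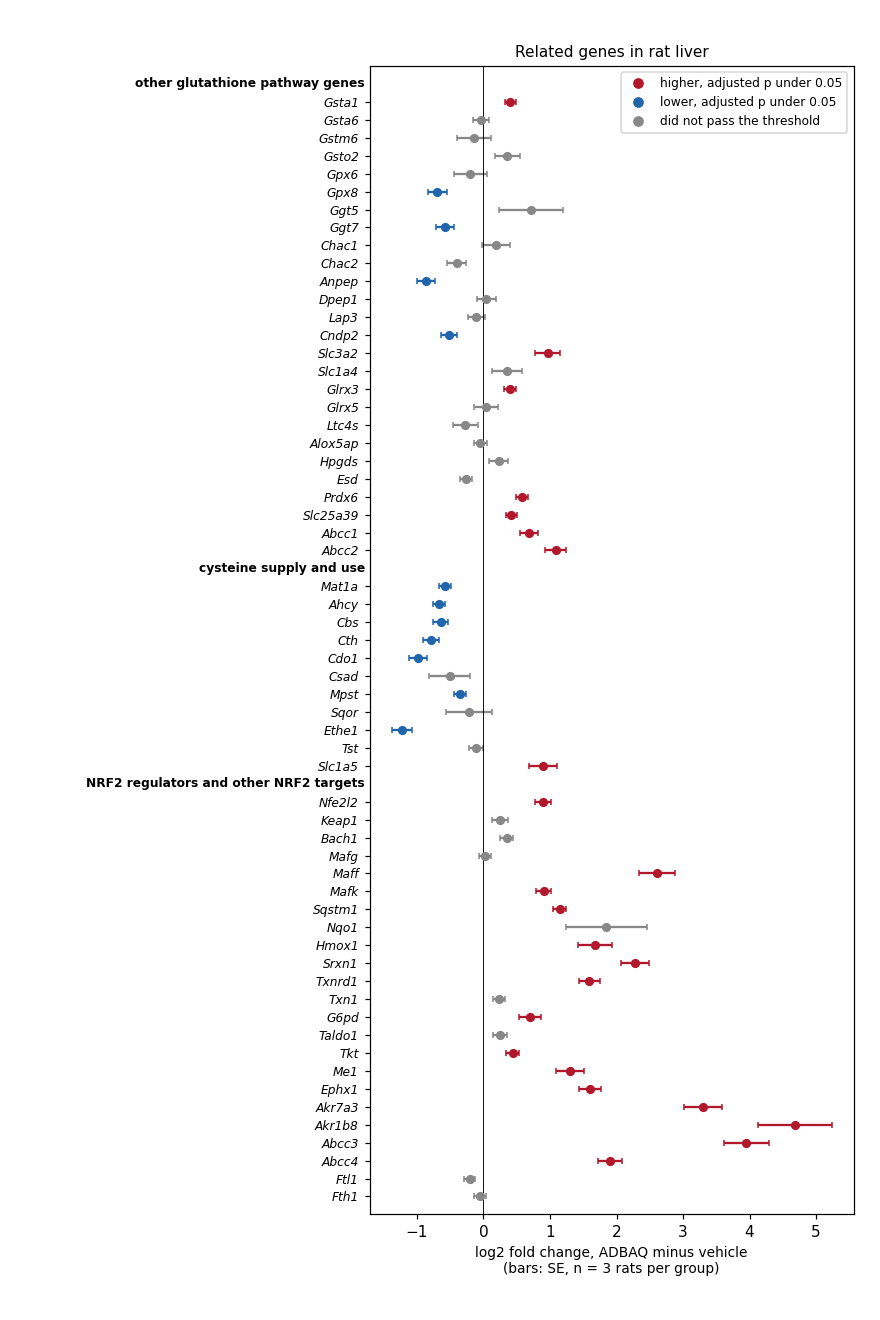
Log2 fold change, ADBAQ minus vehicle (SE bars, n = 3 rats per group), of the tested genes of the 3 related lists. Genes of the NRF2 list reach from -0.21 (Ftl1, on its brightest probe) to 4.68, and most genes of the cysteine list lie left of 0.

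Some markers of hepatocytes, cholangiocytes and erythroid cells passed the test, and those of the other cell types did not on their brightest probes. All 10 hepatocyte markers were well above background. Of the 10, 7 fell (11.3% of all genes did), but with spike-in scaling 2 fell and 4 rose. Their summed relative signal was 5010 to 5390 in ADBAQ rats and 7040 to 7530 in vehicle rats. Of 7 measured cholangiocyte markers 3 rose (9.05% of all genes did) and 1 fell (11.3% of all genes did). Their sums were 2.81 to 4.50 in ADBAQ rats and 1.78 to 2.13 in vehicle rats. Epcam (0.82 ± 0.20), Prom1 (0.94 ± 0.18) and Cftr (0.83 ± 0.15, and 0.14 with normexp) were higher and Krt7 (-0.61 ± 0.12, and 0.14 with spike-in scaling) lower. All 3 measured erythroid markers rose (9.05% of all genes did), with sums of 413 to 552 in ADBAQ rats and 204 to 285 in vehicle rats. None of the tested markers of macrophages (8), stellate cells (7), endothelial cells (4), lymphocytes (4) or neutrophils (3) passed in limma, and at an unadjusted p under 0.05 there were 3 stellate and 2 endothelial markers and none of the other types. A further probe of the lymphocyte marker Ptprc passed (0.44; adjusted p = 0.0314). With spike-in scaling 8 of 8, 6 of 7, 4 of 4, 4 of 4 and 3 of 3 of these markers were called higher. With that scaling 9130 of 11344 genes were called, in either direction. The part of these cells in the changes of Gstp1, Ggt1, Gpx2 and the other glutathione genes was not tested.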

How the data were processed

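Per the file headers, Agilent Feature Extraction 10.7.1.1 (10.7 per the submitters' processing notes) read the arrays, whose design rests on the rat assembly rn4. Intensity values in the deposited scanner files are linear: the background-subtracted processed signal, the median spot signal and the local background. Columns of flags, per the file headers, mark spots well above background, saturated or outlying. The deposited series table holds a linear ratio. Set against the scanner values, it is the processed signal over the 75th percentile of each array, not centred on genes, with medians of 0.093, 0.0971 and 0.0952 for ADBAQ and 0.0967, 0.097 and 0.0983 for vehicle.

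Here the processed signal of 61657 probes was put on the log2 scale and the 75th percentile of its array subtracted, without the 1319 control spots and with outlier spots left out (0 to 2 per array). The 38695 probes tested were detected, that is well above background, in all 3 rats of ADBAQ, vehicle or both. ADBAQ was compared with vehicle in limma 3.58.1 (lmFit and eBayes; R 4.3.3), with p adjusted by Benjamini-Hochberg over the kept probes and a threshold of 0.05. SE is the moderated error of eBayes. Each gene takes the values of its brightest probe, by mean log2 signal over the arrays. Where a probe was detected in no vehicle rat, the fold is a bound, taken against the higher, per array, of its own signal and the lowest signal of a detected probe. The procedure was tested on simulated data. The number of arrays limits the precision, and the treatment protocol describes separate animals.

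The glutathione genes and all lists were chosen with earlier results of these data known. Named are all listed glutathione genes, up to 8 passing genes per direction and related list whose groups did not overlap, and Nfe2l2, Keap1, Bach1, Nqo1 and Hmox1. Alternatives were normexp (offset 50, on the median spot signal), quantile and median scaling, scaling to 8 spike-in probes, no filter or a stricter one, the series table, eBayes with trend and robust, weights per array, a replicate block, other rules for genes with several probes, and each array left out.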

Additional observations from a re-analysis of the deposited data

How the results depend on the processing

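Of the 17 calls among the glutathione genes, 9 held under all settings run that kept all arrays, and 8 with each array left out. With normexp, 4049 genes and 7 glutathione genes lower were called. Without a filter on dim probes, 3530 genes were called. With spike-in scaling, 9130 genes were called, with 28 glutathione genes higher and 1 lower, a median of 1.17, and 45 related genes higher and 1 lower. Spike-in scaling turned the log2 fold changes of Ggct (0.23), Glo1 (0.62), Glrx (0.48), Gpx1 (0.21), Gpx4 (0.71), Gpx7 (0.62), Gss (0.68), Gstz1 (0.59), Hagh (0.51), Mgst1 (0.55) and Oplah (0.19). Among related genes it turned Ahcy (0.089), Cbs (0.11), Cndp2 (0.24), Ggt7 (0.18), Gpx8 (0.062), Mat1a (0.18) and Mpst (0.40). Gss turned with normexp (0.045), Gpx4 with quantile normalization (0.074) and Gstt2 on its dimmest probe (-0.13). Scaling to the spike-ins adds one shift to all genes of an array; the other causes were not tested.

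The replicate numbers did not pair the rats: deviations of same-numbered arrays correlated at -0.0292, -0.02 and -0.00456. With the replicate block, 982 genes were called, 9 glutathione genes higher and 2 lower, and 16 related genes higher and 7 lower. The glutathione genes not called with the block were Gpx1, Gpx2, Gsta4, Gsta5, Mgst2 and Oplah (adjusted p 0.0517 to 0.107). With each array left out in turn, 922 to 1565 genes were called, with 7 to 13 glutathione genes higher and 1 to 2 lower, a median of 0.292 to 0.454, and 21 to 29 related genes, 15 to 19 higher and 5 to 10 lower. Without ADBAQ rat 1 the counts were lowest for all genes (922) and for glutathione genes higher (7). The slide as a block was not run, since each slide held 1 group, and protein identity between family members was not run. Probes near background, such as those of Slc7a11, Gclm and Ggt1, gave smaller folds with normexp.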
